A study of Homo sapiens with 9 samples.

Results

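The IL-12 family cytokines are built from 5 subunit genes, EBI3, IL12A, IL12B, IL23A and IL27, and all 5 were found by gene name among the 60656 genes of the count table. Their mRNA was measured by RNA-seq in RIVA, an established cell line of the activated B-cell type of diffuse large B-cell lymphoma, infected with doxycycline-inducible lentiviral constructs (plvx-Tetone). The 9 libraries comprised 3 with empty vector, whose genotype label is BCL10 wild type, 3 with BCL10 S136X, a truncation, and 3 with BCL10 R58Q, a missense change. All groups, vector included, received 200 ng/mL doxycycline for 24 h by the treatment protocol, while a second label gives the same dose per µL. The study calls the libraries biologic replicates, but whether each came from its own infection is not given in the sources used here.

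Each family member pairs an alpha chain that resembles a helical cytokine with a beta chain that resembles a soluble receptor. IL12A (p35), IL23A (p19) and IL27 (p28) are alpha chains, and IL12B (p40) and EBI3 are beta chains. IL-12 is IL12A with IL12B, IL-23 is IL23A with IL12B, IL-27 is IL27 with EBI3, IL-35 is IL12A with EBI3, and IL-39, described in mouse B cells, is IL23A with EBI3. Dendritic cells and macrophages are the classic sources of IL-12, IL-23 and IL-27, while EBI3 was first found as a gene induced in B cells by Epstein-Barr virus and IL-35 is known from regulatory T and B cells. BCL10 carries signals from the B-cell receptor to NF-kB, and several of the subunit genes are known NF-kB targets.

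The libraries held 28047713 to 33122267 counts. The BCL10 gene had 885 to 1268 counts in the vector libraries, 9838 to 14293 in S136X and 10117 to 10596 in R58Q, so its level followed the labels. These counts do not separate the construct from the cells' own gene. No library carried a wild-type BCL10 construct. Mutation and raised BCL10 level thus cannot be told apart when either mutant is compared with vector. A date in the column names of the count table sets the R58Q libraries, which share a later one, apart from the other 6. Date and construct therefore cannot be told apart in any comparison with R58Q, and none could be made within 1 date. Both mutants were compared with the same vector libraries. The B-cell markers MS4A1, CD79A, CD79B and PAX5 summed to between 2150 and 2720 CPM (a gene's counts scaled to the same depth in every library) and were not called. Of 6 monocyte and macrophage markers, 5 had at least 1 count in the vector libraries, with a summed level of 0.519 to 0.647 CPM, against 0.307 to 0.651 in S136X (5 of 6) and 0.401 to 0.505 in R58Q (4 of 6). The dendritic cell markers CLEC9A, CLEC10A and FCER1A had 0 counts in all 9 libraries, and XCR1 had 1 count in 1 vector library. The summed level of 4 T-cell markers ran from 1.63 to 3.85 CPM with vector, 1.16 to 8.55 with S136X and 1.38 to 12.3 with R58Q. TRAC, a T-cell receptor constant region, made up most of it, while CD3E had 1 to 9 counts and CD3D and CD3G never exceeded 2, and its part in the results was not tested.

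The sequence just upstream of 3 subunit genes is shown because these genes differed in how they responded to the constructs: EBI3 rose with both, IL12B rose with R58Q, and IL23A fell with S136X. Each stretch is the 250 bases before the RefSeq start (build GRCh38.p14), read 5′ to 3′ on the gene's strand, at chr19:4229273-4229522 (plus strand) for EBI3, chr5:159330488-159330737 (minus strand) for IL12B and chr12:56338634-56338883 (plus strand) for IL23A. Capitals mark matches to the full 10-letter kB consensus, a pattern that NF-kB dimers are known to bind, and to the AP-1 heptamer TGANTCA. Both were searched on both strands.
EBI3: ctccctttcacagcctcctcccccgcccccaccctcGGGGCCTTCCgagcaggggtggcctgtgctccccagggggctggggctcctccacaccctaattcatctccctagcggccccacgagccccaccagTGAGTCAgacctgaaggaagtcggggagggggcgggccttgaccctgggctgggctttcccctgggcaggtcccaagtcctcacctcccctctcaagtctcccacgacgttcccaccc
IL12B: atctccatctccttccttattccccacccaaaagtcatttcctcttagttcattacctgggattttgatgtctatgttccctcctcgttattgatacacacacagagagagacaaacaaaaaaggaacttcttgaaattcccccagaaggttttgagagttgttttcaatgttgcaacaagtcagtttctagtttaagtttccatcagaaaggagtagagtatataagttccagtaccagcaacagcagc
IL23A: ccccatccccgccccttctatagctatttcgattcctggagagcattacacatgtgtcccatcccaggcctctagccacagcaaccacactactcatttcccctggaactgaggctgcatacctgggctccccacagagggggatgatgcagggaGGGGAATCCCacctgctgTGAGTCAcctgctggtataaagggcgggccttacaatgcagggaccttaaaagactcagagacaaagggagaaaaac
The EBI3 stretch held a kB match beginning 214 bases before the start and an AP-1 match beginning 118 bases before it. The IL23A stretch held a kB match at 95 bases and an AP-1 match at 77 bases, both closer to the start. The IL12A stretch (chr3:159988585-159988834) had a kB match at 44 bases and no AP-1 match. The IL12B stretch had neither, and its only match among the 3 motifs searched was to GAGGAA, the PU.1 core, on the opposite strand 212 bases before the start. Of 35116 promoters of this length, 9.96% held the kB consensus, 6.57% the AP-1 heptamer and 23.6% the PU.1 core. A match is a run of letters and was not tested for binding. Sites that depart from the full kB consensus were not searched for, so a stretch without a match may still hold one. The RefSeq table had no entry for IL27.

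EBI3, the beta chain of IL-27, IL-35 and IL-39, rose in both mutants, and further in R58Q. It had 203, 187 and 169 counts in the vector libraries, 1299, 1237 and 1076 in S136X and 2867, 2168 and 3142 in R58Q. The 3 groups did not overlap, and the lowest mutant library was above every vector library. Scaled for depth and composition (the trimmed mean of M values, TMM), vector had 5.57 ± 0.540 CPM, S136X 40.1 ± 3.67 and R58Q 88.3 ± 13.8 (mean ± SD, n = 3 per group, as in all values with ± here). A difference was called where it reached 1.5-fold with an adjusted p under 0.05 (quasi-likelihood test of edgeR, Benjamini-Hochberg adjustment over all genes tested). EBI3 was 7.21-fold higher in S136X than in vector (log2 fold change 2.85, SE 0.110, edgeR adjusted p = 5.15e-06). It was 15.8-fold higher in R58Q than in vector (log2 fold change 3.98, SE 0.139, edgeR adjusted p = 1.22e-05). The direct comparison put R58Q 2.19-fold above S136X (log2 fold change 1.13, SE 0.121, edgeR adjusted p = 0.0138), a call that was lost without S136X replicate 2, S136X replicate 3 or R58Q replicate 3. Per kilobase of exon, the mean EBI3 level exceeded that of 65.2% of 19862 protein-coding genes in vector, 93.3% in S136X and 97.3% in R58Q.

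IL12B, the p40 beta chain that IL-12 and IL-23 share, was close to undetected except in R58Q. It had 2, 1 and 2 counts in the vector libraries, 0, 3 and 1 in S136X and 25, 30 and 80 in R58Q. All R58Q libraries lay above the others, and R58Q replicate 3 stood well above its fellows. Over all counts, R58Q was 29.4-fold above vector (exact 95% interval 12.3 to 91.9) and 32.9-fold above S136X (12.6 to 123), intervals that cover counting error only. Without R58Q replicate 3 these ratios were 18.5 (7.48 to 59.3) and 20.8 (7.67 to 78.9). The edgeR quasi-likelihood test called IL12B higher in R58Q than in vector (adjusted p = 0.0023) and than in S136X (adjusted p = 0.0462). The second call was kept in only 1 of the 6 fits that left out a library, the 1 without R58Q replicate 1. The fitted log2 fold changes of 4.75 (SE 0.635) and 4.89 (SE 0.762) depend on the prior count and are no bound. S136X could not be told from vector at this depth (ratio 0.892, exact 95% interval 0.177 to 4.14). IL12B was removed from the S136X test by the filter on low counts.

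IL27, the p28 alpha chain of IL-27, had 2, 0 and 1 counts in the vector libraries, 9, 5 and 5 in S136X and 32, 19 and 25 in R58Q. The 3 groups did not overlap. R58Q exceeded vector 27.6-fold (exact 95% interval 9.08 to 137, counting error only), and the difference was called (edgeR quasi-likelihood adjusted p = 0.00166, fitted log2 fold change 4.62, SE 0.576, which depends on the prior count). S136X exceeded vector 7.06-fold (exact interval 2.08 to 37.3). This comparison was under the filter on low counts, and the exact two-sided permutation test of CPM gave p = 0.1, the smallest that 3 against 3 libraries allow. When all 9 libraries entered 1 edgeR fit, which kept the gene, it was called higher in S136X (log2 fold change 2.67, adjusted p = 0.0359), and with no filter at all it was not (adjusted p = 0.054). R58Q was 3.9-fold above S136X by counts (exact interval 2.34 to 6.83). The edgeR test did not call this difference (log2 fold change 1.93, SE 0.370, adjusted p = 0.0886), while with the replicate number as a block it did (adjusted p = 0.000748).

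IL12A, the p35 alpha chain of IL-12 and IL-35, had 22, 28 and 29 counts in vector, 31, 27 and 41 in S136X and 54, 29 and 51 in R58Q. The vector and S136X ranges overlapped, and R58Q replicate 2 equalled the highest vector count. Scaled for depth, all R58Q libraries lay above vector (0.97 to 1.82 against 0.65 to 0.86 CPM), and S136X overlapped both. IL12A was 1.41-fold above vector in S136X (log2 fold change 0.49, SE 0.280, edgeR adjusted p = 0.301) and 1.84-fold above it in R58Q (log2 fold change 0.88, SE 0.285, edgeR adjusted p = 0.061). Neither passed the test. With the replicate number as a block, the R58Q difference was called (log2 fold change 0.86, edgeR adjusted p = 0.0395). R58Q and S136X were not separated (log2 fold change 0.38, SE 0.307, edgeR adjusted p = 0.766).

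IL23A, the p19 alpha chain of IL-23, was the only subunit that fell. It had 342, 370 and 300 counts in vector, 178, 245 and 166 in S136X and 348, 359 and 311 in R58Q. The S136X libraries lay below all others, and the R58Q and vector libraries overlapped. IL23A was 0.645 times the vector level in S136X (log2 fold change -0.63, SE 0.150, edgeR adjusted p = 0.0312), a call lost when vector replicate 1, vector replicate 2, S136X replicate 1 or S136X replicate 3 was left out. In R58Q the log2 fold change was 0.13 (SE 0.136, edgeR adjusted p = 0.529). R58Q was 1.69-fold above S136X (log2 fold change 0.76, SE 0.150), which missed the threshold with an edgeR adjusted p of 0.0935 and passed it with the replicate block (adjusted p = 1.15e-05).

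**Figure D1:**
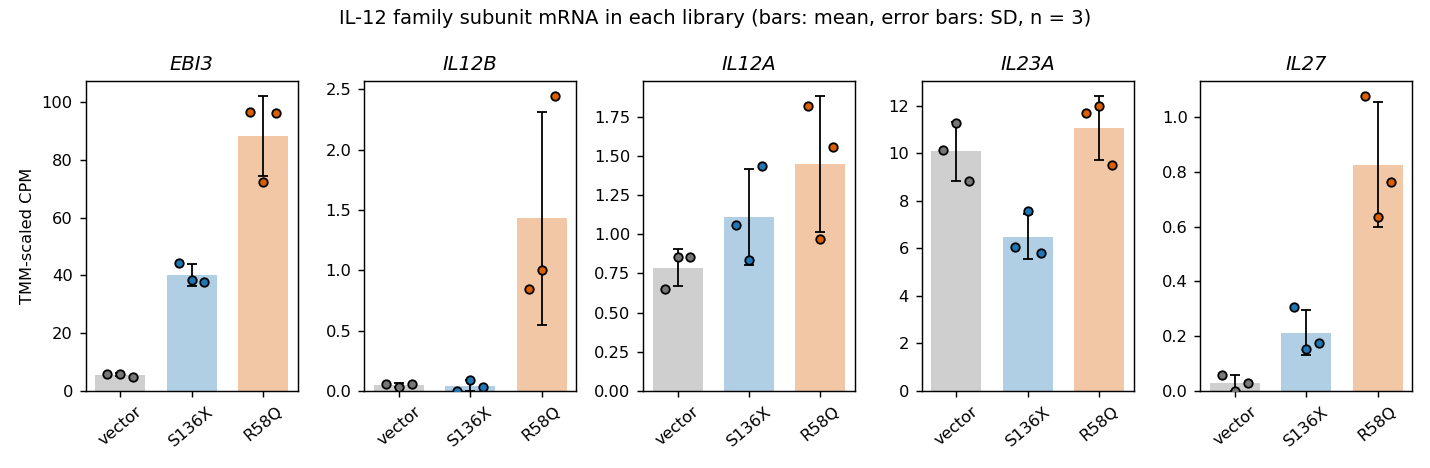
TMM-scaled CPM of the 5 subunit genes in each library (points), with the group mean (bars, axes from 0) and SD (n = 3). The 3 groups are separate for EBI3 and IL27, only R58Q is high for IL12B, and S136X is low for IL23A. For IL12A, S136X overlaps both other groups, while R58Q lies above vector.

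Of all 15530 genes tested in S136X against vector, 2.05% were called higher and 1.82% lower. Among the subunits 3 of 5 were tested, with 1 higher (EBI3) and 1 lower (IL23A), and a median log2 fold change of 0.49 beside -0.02 over all genes. Only EBI3 remained called when vector replicate 1, vector replicate 2, S136X replicate 1 or S136X replicate 3 was left out. In R58Q against vector 4.09% of 15435 genes were called higher and 3.54% lower. There all 5 subunits were tested and 3 were called higher (EBI3, IL12B and IL27), with a median of 3.98 beside -0.03 over all genes. IL12B and IL27 passed the filter only through their R58Q counts, here and in R58Q against S136X. Their calls, and the counts and medians that include them, are therefore no independent evidence beside the shares over all genes. EBI3, IL12A and IL23A did not depend on this. Their log2 fold changes in R58Q against vector were 3.98, 0.88 and 0.13, and only EBI3 was called. In R58Q against S136X 0.27% of 15195 genes were called higher and 0.165% lower. Of the 5 subunits 2 were called higher there (EBI3 and IL12B), 4 with the replicate block (IL23A and IL27 in addition), with a median of 1.13 beside 0.00279 over all genes. This count fell to 1 without S136X replicate 1 or R58Q replicate 2 and to 0 without S136X replicate 2, S136X replicate 3 or R58Q replicate 3.

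**Figure D2:**
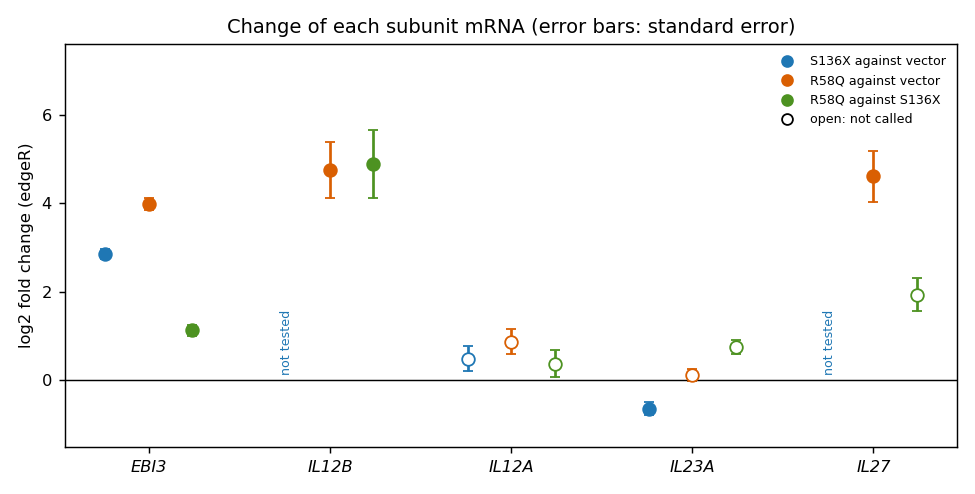
Fitted log2 fold change of each subunit with its standard error in the 3 comparisons. Filled points were called and open points were not. EBI3 is filled in all 3, IL12B in both that involve R58Q, IL27 in R58Q against vector and IL23A, below 0, in S136X against vector.

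To compare levels between subunits, CPM was divided by the length of each gene's merged exons (RPKM, that is CPM per kilobase). In vector the order was IL23A at 8.50 ± 1.04 RPKM, EBI3 at 4.34 ± 0.420, IL12A at 0.386 ± 0.0571, then IL27 at 0.0233 ± 0.0233 and IL12B at 0.0180 ± 0.00597, with the last 2 inside each other's spread. In S136X EBI3 led at 31.3 ± 2.85 RPKM, followed by IL23A at 5.47 ± 0.806, IL12A at 0.545 ± 0.149, IL27 at 0.167 ± 0.0652 and IL12B at 0.0155 ± 0.0170. In R58Q EBI3 was at 68.8 ± 10.8 RPKM and IL23A at 9.33 ± 1.15. The R58Q levels of IL12A at 0.710 ± 0.214, IL27 at 0.650 ± 0.179 and IL12B at 0.518 ± 0.320 RPKM did not differ beyond their spread. EBI3 and IL23A thus changed places between vector and both mutants.

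Each pair can form only as far as its scarcer chain allows. By that measure, on mRNA alone, the vector cells had both chains of IL-39 and, at a low level, of IL-35. The scarcer chain stood at 4.34 ± 0.420 RPKM for IL-39 (EBI3) and 0.386 ± 0.0570 for IL-35 (IL12A). The pairs IL-12, IL-23 and IL-27 each had a chain with at most 2 counts in any vector library, which is under the 3 counts that a count of 0 allows. Protein was not measured here, and in bulk RNA both chains need not come from the same cells. Nor can fewer cells with a transcript be told from less RNA per cell.

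In S136X the mRNA of both chains of IL-39 and IL-35 was again present, and IL27, which IL-27 needs, was counted at a low level. IL-35 remained limited by IL12A, at 0.545 ± 0.149 RPKM, while the EBI3 level was 41.7 to 72.8 times higher in the same libraries. For IL-39 the scarcer chain changed from EBI3 in all 3 vector libraries to IL23A in all 3 S136X libraries, at 5.47 ± 0.806 RPKM. IL27 reached 5 to 9 counts, above the 3-count limit in every library. An IL-27 pair would be limited to 0.167 ± 0.0652 RPKM, with EBI3 143 to 245 times higher. That limit applies to a count of 0 and does not separate these libraries from vector libraries with up to 2 counts. The exact permutation test of IL27 in S136X against vector gave p = 0.1, the smallest possible. IL-12 and IL-23 remained without IL12B above 3 counts in any S136X library.

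R58Q was the only group in which both chains of all 5 pairs exceeded 3 counts in every library. That limit applies to a count of 0 and is no threshold for making a cytokine. Per kilobase of exon, the mean R58Q levels of IL12B, IL27 and IL12A exceeded only 47.0%, 48.1% and 48.5% of 19862 protein-coding genes. IL23A exceeded 77.3%. The scarcer chain of IL-12 was at 0.477 ± 0.25 RPKM, with IL12B limiting in 2 libraries and IL12A in 1, and the more abundant chain only 1.16 to 2.92 times higher. IL-23 was limited by IL12B at 0.518 ± 0.320 RPKM, with IL23A 9.04 to 32.4 times higher. Without R58Q replicate 3 the limits of IL-12 and IL-23 were both 0.334 RPKM. IL-27 was limited by IL27 at 0.650 ± 0.179 RPKM and IL-35 by IL12A at 0.710 ± 0.214. EBI3 exceeded these alpha chains by 88.6 to 124 times and 84.4 to 119 times. IL-39 had the highest ceiling in every group and was limited by IL23A in R58Q, at 9.33 ± 1.15 RPKM. The limits of the pairs are descriptions and were not tested as such, since the limiting chain of IL-39 and of IL-12 was not the same gene in every library.

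**Figure D3:**
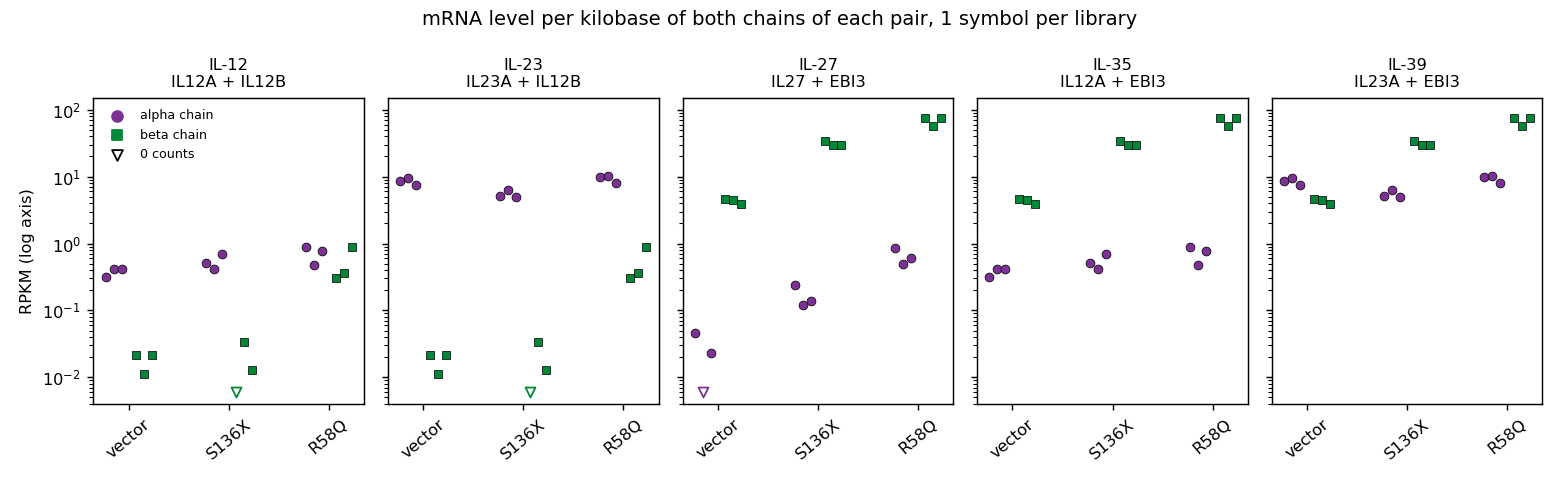
RPKM (log axis) of the alpha chain (circles) and beta chain (squares) of each pair, 1 symbol per library, with libraries at 0 counts drawn as open triangles at the foot. In R58Q the IL-12 chains overlap, whereas in vector and S136X the IL12B squares lie far below IL12A.

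The receptors of the family are shared as the chains are: IL12RB1 serves IL-12 and IL-23, IL12RB2 completes the IL-12 receptor, IL23R that of IL-23, and IL27RA joins IL6ST (gp130) for IL-27. IL27RA stood at 25.4 ± 1.29 CPM in vector, 20.8 ± 3.50 in the S136X libraries and 21.1 ± 2.75 in the R58Q libraries. In the same order IL12RB1 was at 4.50 ± 0.237, 3.31 ± 0.717 and 3.72 ± 0.405 CPM, and IL6ST at 3.24 ± 1.46, 3.40 ± 1.84 and 3.69 ± 1.0. IL12RB2 had at most 1 count and IL23R at most 5 counts in any library. Of 5 receptor chains 3 were tested and 0 were called in each comparison by edgeR or DESeq2 (at an unadjusted p under 0.05, 2 in S136X and 1 in R58Q against vector and 0 in R58Q against S136X). Over all genes tested, 2.05% were called higher and 1.82% lower in S136X against vector. The shares were 4.09% and 3.54% in R58Q against vector and 0.27% and 0.165% in R58Q against S136X. With 3 genes tested, 0 calls is near these shares and does not set the receptor chains apart. Both chains of the IL-27 receptor were thus measured in all groups, whereas the specific chains of the IL-12 and IL-23 receptors were near 0.

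Of 5 kinases and transcription factors that act below these receptors (JAK1, JAK2, TYK2, STAT3 and STAT4), 4 were tested and 0 were called against vector by edgeR or DESeq2, with 3 at an unadjusted p under 0.05 in each mutant. With 4 genes tested, 0 calls is again near the shares over all genes (2.05% higher and 1.82% lower in S136X, 4.09% and 3.54% in R58Q). STAT3, a transducer of IL-23 and of gp130 cytokines, was at 62.1 ± 2.38 CPM in vector, 71.6 ± 3.04 in the S136X libraries and 87.7 ± 3.93 in the R58Q libraries. Its fold over vector was 1.15 in S136X (edgeR adjusted p = 0.0719) and 1.41 in R58Q (edgeR adjusted p = 0.00155), both under the limit of 1.5. TYK2, the kinase bound to IL12RB1, was 1.38-fold and 1.37-fold above vector (edgeR adjusted p = 0.0419 and 0.0187), also under the limit. JAK1 stood at 0.85 and 0.843 times vector (edgeR adjusted p = 0.066 and 0.0307), again by less than 1.5-fold. JAK2 was at 1.05 and 1.22 times vector (edgeR adjusted p = 0.792 and 0.198). STAT4, the transducer of IL-12, had at most 2 counts in any library.

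Of 12 transcription factors known to act on the subunit genes, all were tested and 3 rose in S136X (NFKB1, NFKB2 and IRF1). Over all genes tested, 2.05% were called higher there and 4.09% in R58Q. The list was chosen with earlier results of these data known, so its counts are a description. In R58Q the factors NFKB1, NFKB2 and IRF1 rose together with RELB and JUN. NFKB1, the p105/p50 subunit, was 1.76-fold higher in S136X and 2.25-fold in R58Q (log2 fold changes 0.82, SE 0.0623, and 1.17, SE 0.0647). NFKB2, the p100/p52 subunit, was 1.83-fold and 2.64-fold higher (0.87, SE 0.0725, and 1.40, SE 0.0832). IRF1, an interferon-induced factor that acts on IL12A, IL12B and IL27, had 561, 664 and 762 counts in vector, 706, 1471 and 933 in S136X and 2658, 2670 and 2077 in R58Q. In these raw counts, not scaled for depth, the S136X range overlapped that of vector while the R58Q range did not. Its fold was 1.73 in S136X (edgeR adjusted p = 0.0483) and 4.07 in R58Q (edgeR adjusted p = 0.00014). REL and RELA, the c-Rel and p65 subunits, and IRF8, SPI1 and CEBPB, factors of the myeloid and B-cell lineages, were not called, nor were IRF3 and FOS, although DESeq2 and the fit with the replicate block called FOS in S136X. The list's median log2 fold change was 0.32 in both mutants against vector.

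Of 9 genes known as outputs of these cytokines, 3 were tested. SOCS1, a feedback inhibitor of JAK signalling, had 61, 55 and 68 counts in vector, 83, 152 and 91 in S136X and 215, 267 and 296 in R58Q, with no overlap between groups. It was 1.96-fold higher in S136X (edgeR adjusted p = 0.0307) and 4.58-fold in R58Q (edgeR adjusted p = 0.000109). SOCS3, the inhibitor of gp130 signalling, had 48, 49 and 78 counts in vector, 77, 84 and 133 in S136X and 293, 194 and 620 in R58Q. In raw counts, which are not scaled for depth, vector and S136X overlapped by 1 count. SOCS3 was called in R58Q (6.75-fold, edgeR adjusted p = 0.00306). In S136X it was not called by this test (1.89-fold, edgeR adjusted p = 0.0854) but was by DESeq2 and with the replicate block. TBX21, the T-helper 1 factor, was measured at 67 to 110 counts and was not called. IL17A and IL22, outputs of IL-23 in T cells, had 0 counts in all libraries, and IFNG, IL21 and IL17F had at most 2. In IL10, 0 to 9 counts were found.

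IL6 is a helical cytokine like the alpha chains and signals through gp130. It was called higher in R58Q than in either other group, from 0 counts in every vector library, 2 in every S136X library and 63 to 91 in R58Q. CLCF1, another partner of this group, was not called. Over the receptors, kinases, factors, outputs and partners, 4 of the 23 genes tested were called higher in S136X (17.4%, beside 2.05% of all genes tested) and 8 of 24 in R58Q (33.3%, beside 4.09%). The lists were written by hand with earlier results of these data known. Their shares are therefore descriptions and no evidence of enrichment over all genes. IL6, 1 of these 8, passed the filter on low counts through its R58Q libraries. The S136X count was 2 without vector replicate 1, vector replicate 2, S136X replicate 2 or S136X replicate 3, and 6 with the replicate block (FOS and SOCS3 in addition). Directly, R58Q exceeded S136X for 1 of 24 (IL6), and with the replicate block for 4 (IRF1, SOCS1 and SOCS3 in addition). No receptor chain was among these, but only 3 receptor chains were tested.

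**Figure D4:**
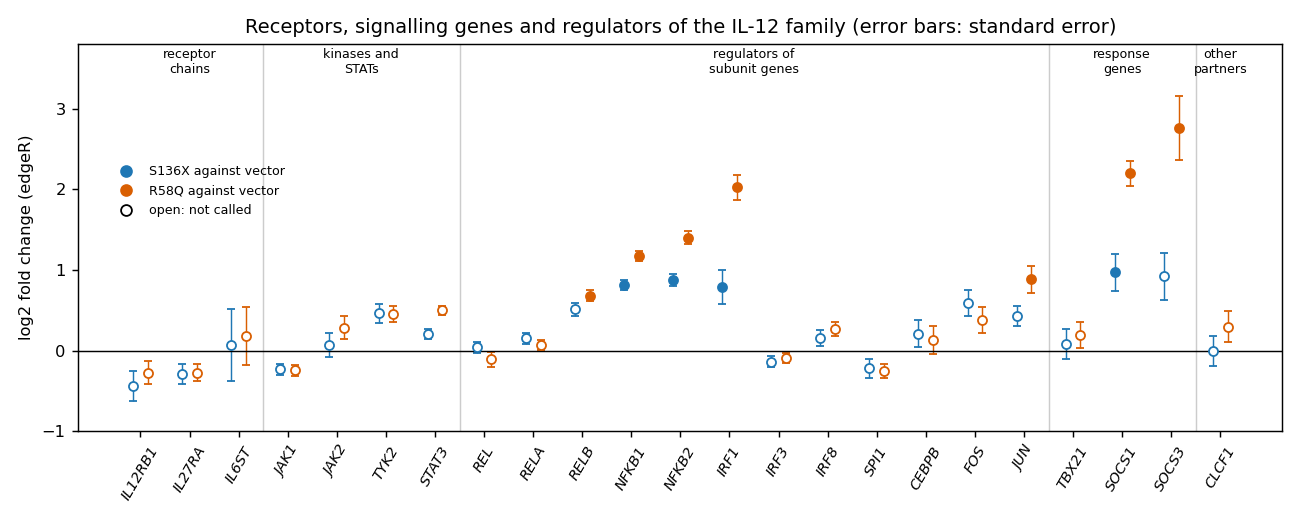
Fitted log2 fold change against vector, with standard error, of the receptor, signalling, regulator and output genes that were tested in S136X (blue) or R58Q (orange). IL6 is not drawn. Filled points were called: NFKB1, NFKB2, IRF1 and SOCS1 in both mutants, and RELB, JUN and SOCS3 in R58Q.

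The genome around the subunit genes was examined because counts of overlapping genes may mix. In GRCh38 coordinates of the count table EBI3 lies at chr19:4229523-4237528, IL12A at chr3:159988835-159996019, IL12B at chr5:159314780-159330487 on the minus strand, IL23A at chr12:56334174-56340410 and IL27 at chr16:28499362-28512051 on the minus strand. The strand setting used for counting is not given in the sources used here. IL12B lies within AC008691.1, a long noncoding RNA on the opposite strand that shares 0 exon bases with it. AC008691.1 had 4, 12 and 9 counts in vector, 14, 12 and 7 in S136X and 21, 15 and 35 in R58Q, and was called higher in R58Q against vector (log2 fold change 1.60, SE 0.447, edgeR adjusted p = 0.0375). Whether IL12B reads add to this count was not tested. IL12A-AS1, the antisense RNA across IL12A, shares 78 exon bases with it (3.82% of the IL12A exons) and had at most 1 count.

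PAN2, a deadenylase subunit on the opposite strand, begins 121 bases before the start of the IL23A gene model and was lower in both mutants (0.739 and 0.732 times vector, edgeR adjusted p = 0.00407 and 0.00138), but by less than 1.5-fold. STAT2, 1187 bases on the other side, was not called. The nearest genes of EBI3 and IL27 with more than 10 counts in every library, YJU2, APOBR and CLN3, were not called either. The table's gene model of IL23A begins upstream of the RefSeq start, so the 250 bases printed above lie inside that model.

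The genes whose level ran most like each subunit over the 9 libraries were found by Pearson's r of log2 CPM among 15860 genes, as a description in which all points share their libraries and groups. CD44, an adhesion receptor, was the most like EBI3 (r = 0.996), with mean CPM of 129 (vector), 490 (S136X) and 914 (R58Q), followed by MGLL (0.995) and TNF (0.994). For IL27 the first were TMBIM6 (0.989), CKS2 (0.986) and NFKBIA (0.986), the inhibitor that NF-kB induces, at 304, 603 and 1240 CPM. For IL12B the first was LINC02381 (0.988), itself near 0 outside R58Q at 0.00989, 0.0207 and 0.811 CPM. IL12A ran most like ICAM4 (0.963) and IL23A most like SMAD4 (0.982), whose levels of 143, 124 and 144 CPM differed far less between groups than those of the genes named for EBI3. The genes named for EBI3 and IL27 were intermediate in S136X, and the one for IL12B was near the vector level there. Because they were picked for likeness over these libraries, this restates the subunits' own patterns and is no separate result.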

How the data were processed

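RNA was extracted with on-column DNase, libraries were made with the Nugen Universal Plus mRNA-Seq kit (poly-A selected) and sequenced on a NovaSeq instrument in 2 runs that were combined, per the labels and the study's methods. The submitters' processing notes name cutadapt, STAR, Picard and hg38. The counting program, annotation release and strand setting are not given in the sources used here. The authors deposited raw counts per gene beside a second column per library under the same name, holding their normalized values, which was not used. Of the 60656 identifiers 96.3% are in GENCODE 29, from which exon lengths were taken, and 0 lacked a gene name.

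From the counts, genes were filtered (filterByExpr, minimum count 10, minimum total 15), scaled by TMM and tested in edgeR 4.0.16 (R 4.3.3) by the quasi-likelihood test, for each pair of groups with its 6 libraries. The study's heatmap of differential expression used a fold limit of 1.5, and its methods name no test across genes. DESeq2 1.42.0, limma-voom (limma 3.58.1), other scalings and filters, all 9 libraries in 1 fit, a replicate block and leaving out each library were alternatives. CPM and RPKM were computed here. The named genes were the subunits, the hand-written pathway and marker lists, BCL10, genes overlapping or within 10 kb of a subunit and the 5 most correlated genes per subunit. Some listed genes are not reported here and were left out of the lists. The members and lists were chosen with earlier results of these data known. Depth ranged from 28047713 to 33122267 counts, and intervals and count limits cover counting error only. Replicates of a group differed by more than sampling noise, with a chi-square per degree of freedom of 7.91 to 25.6, so no library appeared to be deposited again under another name. Same-numbered libraries of different groups deviated together from their group means. Of their correlations, 9 of 9 lay between 0.143 and 0.626, against -0.459 to 0.169 for different numbers. Only the replicate block, an alternative fit, treated these numbers, taken from the sample titles, as pairing. The main tests, on which the calls rest, ignored that pairing. The procedures were tested on simulated data.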

Additional observations from a re-analysis of the deposited data

Results flagged for a closer look

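Among the subunits, 2 effects differed between the mutants by the direct test of R58Q against S136X (edgeR, quasi-likelihood test, Benjamini-Hochberg adjustment over 15195 genes). EBI3 was higher in R58Q by a log2 fold change of 1.13 (adjusted p = 0.0138), with all 3 R58Q libraries above all 3 S136X libraries. IL12B was higher by a fitted log2 fold change of 4.89 (adjusted p = 0.0462), with 25 to 80 counts against 0 to 3. It passed the filter on low counts only through its R58Q libraries. Of the 6 fits that left out 1 library, 3 lost the EBI3 call and 5 the IL12B call. At an adjusted p under 0.01 neither was called. All R58Q libraries carry the later date in their column names, which cannot be told apart from the construct.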

How the results depend on the processing

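The calls of EBI3 against vector in both mutants and of IL12B and IL27 in R58Q against vector held under every alternative that gave them an adjusted p, and no called value changed sign. EBI3 ranged from 2.77 to 2.92 (S136X) and 3.91 to 4.11 (R58Q) on the log2 scale. DESeq2 gave IL27 no adjusted p in R58Q against vector, and IL12B and IL27 had no value where 10 counts were required in every library. IL12A in R58Q against vector passed the threshold with no filter (log2 fold change 0.89, adjusted p = 0.037), with at least 10 counts in every library (0.89, adjusted p = 0.0491) and without R58Q replicate 2 (leave-one-out range 0.70 to 1.10). In R58Q against S136X, IL23A passed with DESeq2 (0.75, adjusted p = 0.00174), no filter (0.76, adjusted p = 0.0122) and all 9 libraries in 1 fit (0.77, adjusted p = 0.0403), and IL27 with no filter (1.94, adjusted p = 0.0138). Leaving out 1 library gave -0.75 to -0.54 for IL23A in S136X against vector, 1.06 to 1.25 for EBI3 and 4.25 to 6.07 for IL12B in R58Q against S136X. These fits have fewer libraries, and where calls were lost otherwise the cause was not tested.

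With the replicate number as a block, IL12A in R58Q against vector (0.86), IL23A (0.76) and IL27 (1.93) in R58Q against S136X were called. The block raised the genes called from 601 to 1014, 1178 to 1647 and 66 to 446 in the 3 comparisons, the subunits called in R58Q against S136X from 2 to 4 and the pathway genes from 1 to 4, and in S136X against vector from 4 to 6. It changed no other call of a subunit.

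In S136X against vector the subunits called were 1 at an adjusted p under 0.01 and 1 to 2 with a library left out, and the pathway genes 2 to 4. In R58Q against S136X the subunits called were 4 with no filter, 1 with 10 counts in every library, 0 at an adjusted p under 0.01 and 0 to 2 with a library left out. The pathway genes were 4 with DESeq2 and with no filter, 0 with 10 counts in every library and 3 with all libraries in 1 fit. Using the longest transcript in place of merged exons moved the IL-39 limit in R58Q to 10.6 RPKM. Leaving out each library from the pair levels was added after seeing the data. Counts under about 10 limit IL12B and IL27 outside R58Q.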
